A study of Mus musculus with 6 samples.

Results

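The 10 genes described here direct mitochondrial biogenesis: 3 coactivators of the PGC-1 family (Ppargc1a, Ppargc1b, Pprc1), the nuclear respiratory factors Nrf1 and Gabpa, and 5 proteins that transcribe or copy mitochondrial DNA (Tfam, Tfb1m, Tfb2m, Polrmt, Polg). They were chosen by symbol for these roles, and all 10 had an entry in both expression tables, among 24067 symbols in both. The cells were satellite cells of mouse muscle, the stem cells from which muscle is repaired, in 4 groups of 1 RNA library each. The cultured groups (ASC, activated satellite cells after 36 h in growth medium) were 1 library labelled Yy1 iKO and 1 labelled Wt, and the freshly isolated groups (FISC) were likewise 1 Yy1 iKO and 1 Wt (WT) library. A YY1 immunoprecipitation library with its input came from ASC labelled C57. The labels give neither the Cre driver, the time of deletion, the animals' age and sex nor any pooling of animals, and YY1 is the zinc finger transcription factor whose gene was targeted. With 1 library in each group there was no replicate error, so every difference below describes these libraries and carries no p-value.

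Mitochondria keep a small genome of their own, but nearly all the proteins that copy and read it are encoded in the nucleus. PGC-1 coactivators bind transcription factors such as NRF1 and GABP, which in turn activate nuclear genes of the respiratory chain and of mitochondrial DNA upkeep. TFAM packages mitochondrial DNA and, with TFB2M, lets the polymerase POLRMT start transcription, while POLG is the replicative DNA polymerase. YY1 is known in mouse skeletal muscle as a partner of PGC-1α at mitochondrial genes, and satellite cells leaving quiescence are known to gain mitochondria.

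The targeted gene was checked first. Yy1 stood at 2.03 FPKM in the ASC iKO library, against 55.2 FPKM in the ASC WT library. In freshly isolated cells Yy1 stood at 20.1 FPKM in the iKO library, against 51.0 FPKM in the WT library. FPKM counts sequenced fragments for each kilobase of a transcript relative to the whole library, a level per length that can be set side by side between genes. All 7 satellite cell markers, among them Pax7, Myod1 and Cdh15, were at 1 FPKM or more in every library. Their summed levels were 1036 FPKM in ASC iKO, 1211 in ASC WT, 2525 in FISC iKO and 2711 in FISC WT. Pax7, the defining factor of satellite cells, stood at 6.19 FPKM in ASC iKO and 28.3 in ASC WT. Total depth is unknown; the steps of low values put the ASC iKO library at 0.664 reads per read of its WT library, and the FISC iKO library at 1.01.

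Promoter sequences of some of the genes are shown first. They are from RefSeq (GRCm38.p6) and run from 250 bases before to 50 after the annotated start, and 9 of the 10 genes had an entry. The deposited loci and peaks are in mm9, so the sequences were not overlaid on the peaks. The Pprc1 summit lies 75 bases inside its listed start, and the Tfb2m summit 6759 bases from the nearer end of its locus. The letters below, which end 50 bases after the annotated start, are thus not a reading of the sequence under these summits. Pprc1 is shown whole because a YY1 peak lies at the start of its listed locus, Tfb2m because a peak lies inside its locus, and Nrf1, Tfam, Polg and Polrmt as examples of promoters with searched motifs; Gabpa and Tfb1m also hold some and are not shown. Capitals mark every match, on either strand, to CGCANGC (the inner letters of the NRF1 motif), CCGGAAG (an ETS motif, the kind GABP binds) or ATGGCG (the core of a YY1 motif), and matches that overlap run together.
Pprc1, chr19:46056289-46056588, plus strand: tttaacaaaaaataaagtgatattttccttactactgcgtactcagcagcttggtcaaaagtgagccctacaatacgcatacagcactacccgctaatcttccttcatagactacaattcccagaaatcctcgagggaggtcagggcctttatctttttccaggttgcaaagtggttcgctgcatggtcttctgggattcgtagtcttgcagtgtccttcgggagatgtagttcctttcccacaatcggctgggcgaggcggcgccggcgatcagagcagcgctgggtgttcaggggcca
Tfb2m, chr1:179546227-179546294, minus strand: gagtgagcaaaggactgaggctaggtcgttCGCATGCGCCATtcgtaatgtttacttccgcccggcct
Nrf1, chr6:30047883-30048037, plus strand: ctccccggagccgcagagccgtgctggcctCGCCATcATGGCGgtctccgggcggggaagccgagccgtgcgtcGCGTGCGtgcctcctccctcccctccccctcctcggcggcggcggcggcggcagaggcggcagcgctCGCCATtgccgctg
Tfam, chr10:71238055-71238294, minus strand: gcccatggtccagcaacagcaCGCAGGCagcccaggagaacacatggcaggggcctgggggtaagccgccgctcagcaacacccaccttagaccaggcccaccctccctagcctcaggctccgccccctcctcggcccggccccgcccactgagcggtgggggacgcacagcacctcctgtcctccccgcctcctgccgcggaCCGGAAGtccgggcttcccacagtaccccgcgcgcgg
Polg, chr7:79466275-79466341, minus strand: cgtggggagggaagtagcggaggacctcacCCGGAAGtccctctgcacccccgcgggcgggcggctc
Polrmt, chr10:79746543-79746743, minus strand: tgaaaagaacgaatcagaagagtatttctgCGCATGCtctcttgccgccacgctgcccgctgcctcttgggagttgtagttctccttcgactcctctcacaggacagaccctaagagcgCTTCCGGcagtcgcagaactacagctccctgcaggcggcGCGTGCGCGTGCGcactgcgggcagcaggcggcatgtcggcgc

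The ETS letters were in the promoters of 4 of the 9 genes (Gabpa, Tfam, Polg and Polrmt), against 8.86% of all 32851 promoter entries. Counted from the annotated start, their first bases lay at −93 in Gabpa, −47 in Tfam, −38 in Polg and −43 in Polrmt. The NRF1 letters were in 6 of the 9 (Nrf1, Gabpa, Tfam, Tfb1m, Tfb2m and Polrmt), with 3 matches in Polrmt, against 16.4% of all entries. The YY1 letters were in 3 (Gabpa, Nrf1 and Tfb2m), against 8.93% of all entries, and in Tfb2m they overlap an NRF1 match. The Pprc1, Ppargc1a and second Nrf1 windows held none of the 3 motifs. These matches describe letters in a window and are no evidence of binding. Of the 4 genes with the ETS letters, Tfam stood higher in the ASC iKO library and Gabpa, Polg and Polrmt stood lower, all within 2-fold. With the median of genes of like locus length subtracted Polg was above 0, but its listed locus is longer than the gene, as given below. The part of these motifs in the ratios was not tested.

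**Figure D1:**
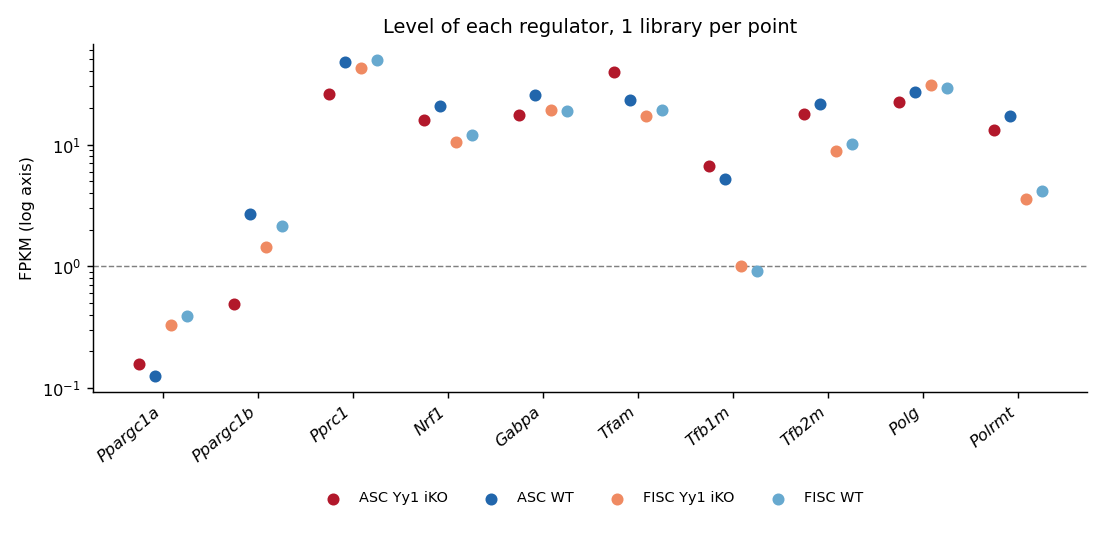
FPKM (log axis) of each of the 10 genes in the 4 libraries, 1 point per library, with a dashed line at 1 FPKM. Pprc1 is the highest PGC-1 family gene in every library, Ppargc1a lies below the line in all 4, and Tfam is higher in ASC Yy1 iKO (39.4 FPKM) than in ASC WT (23.2 FPKM).

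Among the PGC-1 coactivators, nearly all of the measured transcript was Pprc1. Pprc1 encodes PRC, the family member linked to growth signals in cultured mammalian cells, and made up 97.6% of the summed family FPKM in ASC iKO, 94.4% in ASC WT, 96.0% in FISC iKO and 95.2% in FISC WT. Its level was 26.3 FPKM in ASC iKO, against 47.2 FPKM in ASC WT. In freshly isolated cells it was 42.4 FPKM in the iKO library, against 49.7 FPKM in the WT library. The ASC iKO library thus held the lowest Pprc1 level of the 4, and the other 3 lay close together. In ASC WT, Pprc1 stood above 82.0% of genes with at least 1 FPKM, and in ASC iKO above 66.6%.

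Ratios below are log2((FPKM + 1)/(FPKM + 1)), with iKO on top, and were taken where either library of the pair reached 1 FPKM. The added 1 understates the ratio of low genes. The Pprc1 ratio was −0.82 in ASC (1.77-fold lower in iKO) and −0.22 in FISC. A gene is counted as higher or lower at 2-fold or more on this scale, which sets a size and tests nothing, and Pprc1 did not reach it in either state.

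Ppargc1b, which encodes PGC-1β, stood at 0.485 FPKM in ASC iKO, against 2.67 FPKM in ASC WT. In freshly isolated cells it stood at 1.43 FPKM in the iKO library, against 2.14 FPKM in the WT library. Both iKO libraries were below their WT libraries, and the gap was wider in ASC. Its ASC ratio of −1.31 was 2.47-fold lower in iKO, the only one of the 10 genes at least 2-fold apart in that pair, when 8.26% of 11215 genes were at least 2-fold lower and 8.74% at least 2-fold higher. A count of 1 in 9 measured genes is close to that share. Its FISC ratio was −0.37. At so low a level few fragments can move the value, and with 0.1 FPKM added in place of 1 the ASC ratio was −2.24. With the median of genes of like locus length subtracted it was −0.89, within 2-fold. The microRNA gene Mir378a, which the table places at the same locus, was listed at 0 in all 4 libraries.

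Ppargc1a, which encodes PGC-1α, the coactivator best known from exercised muscle and brown fat, was under 1 FPKM in every library. It stood at 0.158 FPKM in ASC iKO and 0.126 in ASC WT, and at 0.331 FPKM in FISC iKO and 0.387 in FISC WT. Both freshly isolated libraries were above both cultured ones, and the genotypes lay close together within each state, though the 2 tables may have been normalized separately. Markers of muscle fibres, a tissue known for high Ppargc1a, were higher in the same 2 libraries. Their 10 genes summed to 5.89 FPKM in ASC iKO, 6.50 in ASC WT, 41.2 in FISC iKO and 32.4 in FISC WT, with 2, 1, 6 and 6 of the 10 at 1 FPKM or more. This was not particular to fibres. Summed markers of satellite, endothelial, fibroblast, adipocyte, pericyte and erythroid cells were also higher in both FISC libraries, while those of immune cells were highest in ASC iKO. Myh2 and Myh7 were listed at 0 in both ASC libraries, Ucp1, the defining gene of brown fat, was listed at 0 in all 4, and the part of these cells in the Ppargc1a level was not tested. In bulk RNA, fewer cells of a type and less RNA per cell cannot be told apart.

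The genes with the most similar pattern across the 4 libraries were taken from 12137 candidates by the distance between log2(FPKM + 1) values, each centred on its own mean. For Ppargc1b they were Mta3 (distance 0.05), Armcx6 (0.11) and Ptbp1 (0.13). Ptbp1, at a far higher level, stood at 92.4 FPKM in ASC iKO and 217 in ASC WT, and at 144 FPKM in FISC iKO and 173 in FISC WT. For Ppargc1a they were Isca1 (0.05), Wdr45b (0.05) and Zxdc (0.05). Ppargc1a was under 1 FPKM in every library, so the added 1 leaves its pattern almost flat and genes that change little lie nearest. Isca1, for one, stood at 33.6 FPKM in ASC iKO, 31.9 in ASC WT, 39.5 in FISC iKO and 40.9 in FISC WT. A pattern over 4 libraries is shared by many genes and these are descriptions only.

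Both nuclear respiratory factors stood lower in the ASC iKO library, within 2-fold. For Nrf1 the ratio was close to 0 once the median of genes of like locus length was subtracted. Nrf1 encodes a DNA-binding activator of respiratory chain and mitochondrial transcription genes, and stood at 15.8 FPKM in ASC iKO, against 20.9 FPKM in ASC WT. In FISC it stood at 10.5 FPKM in iKO, against 12.0 FPKM in WT. Its ratios were −0.38 in ASC and −0.18 in FISC, both within 2-fold. Nrf1 lies in a long locus, and genes of its decile of locus length had a median ASC ratio of −0.42; with that median subtracted the Nrf1 ratio was 0.04, above 0.

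Gabpa encodes the DNA-binding subunit of GABP, also called NRF-2, and stood at 17.4 FPKM in ASC iKO, against 25.7 FPKM in ASC WT. In freshly isolated cells it stood at 19.2 FPKM in iKO and 18.9 FPKM in WT. As deposited, the ASC iKO library was the lowest of the 4 and the ASC WT library the highest, while the FISC pair lay almost level. With each library scaled to the same upper quartile of FPKM, ASC iKO was still lowest at 13.9 FPKM. ASC WT (23.2 FPKM) was then close to FISC iKO (23.1) and FISC WT (21.7). The ratio was −0.53 in ASC and 0.02 in FISC. Gabpa shares its listed locus with Atp5j, an ATP synthase subunit that stood at 597 FPKM in ASC iKO and 248 in ASC WT, in the other direction, so the split of reads between these overlapping genes is uncertain. The partner subunits went opposite ways, both within 2-fold: Gabpb1 stood at 26.9 FPKM in ASC iKO and 23.0 in ASC WT, and Gabpb2 at 10.9 FPKM in ASC iKO and 15.0 in ASC WT. The listed locus of Gabpb2 is also that of Cdc42se1, Gm16740 and Mllt11, so its values are uncertain as well.

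**Figure D2:**
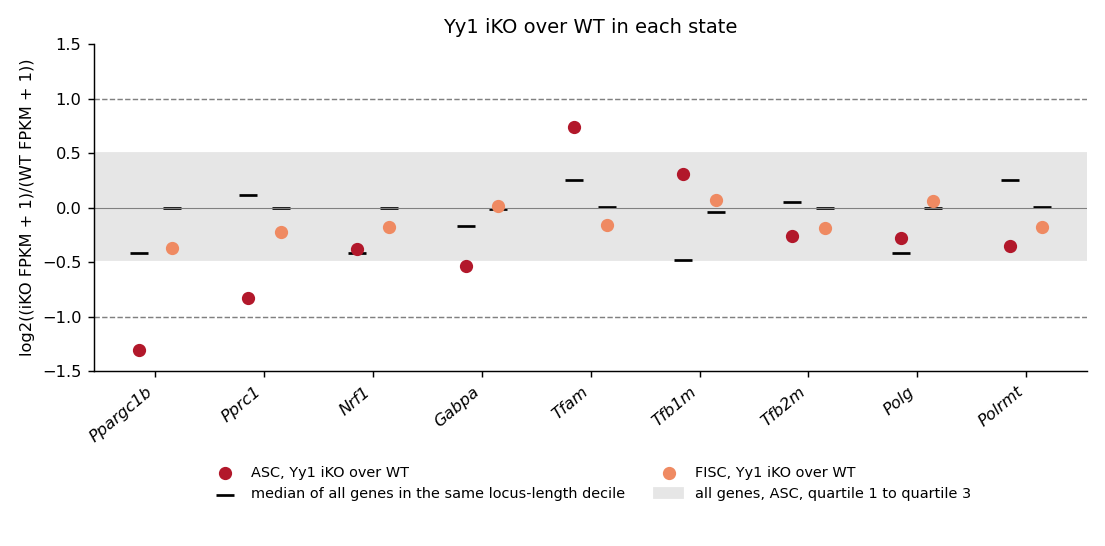
log2 ratio of iKO over WT for the 9 genes with at least 1 FPKM, in ASC and FISC, with the middle of all genes in ASC (quartile 1 to quartile 3) shaded, 2-fold as dashed lines and a black bar at the median of all genes of like locus length. Ppargc1b in ASC is the only point past 2-fold, and Tfam (0.74) and Tfb1m (0.31) are the only 2 ASC points above 0. With the median of like locus length subtracted, Nrf1 (0.04) and Polg (0.13) also lie above 0, though the listed locus of Polg is longer than the gene.

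Of the 5 proteins that act on mitochondrial DNA itself, Tfam and Tfb1m stood above WT in the ASC iKO library and the others below, all within 2-fold. TFAM coats and bends mitochondrial DNA. Tfam stood at 39.4 FPKM in ASC iKO, against 23.2 FPKM in ASC WT. In freshly isolated cells it stood at 17.2 FPKM in iKO, against 19.3 FPKM in WT. The ASC iKO library was above the other 3, which lay close together, and Tfam there was the highest of the 10 genes, where Pprc1 was highest in the other 3 libraries. The ratio was 0.74 in ASC (1.67-fold higher in iKO, above 83.9% of all genes) and −0.16 in FISC. Genes of the same decile of locus length had a median ASC ratio of 0.25, and with that subtracted the Tfam ratio was 0.49. The standard deviation of the ASC ratio over all genes was 0.80.

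Tfb1m and Tfb2m encode related proteins: TFB2M opens the promoter for POLRMT, and TFB1M methylates mitochondrial ribosomal RNA. Tfb2m stood at 17.7 FPKM in ASC iKO, against 21.4 FPKM in ASC WT. In FISC it stood at 8.78 FPKM in iKO, against 10.2 FPKM in WT. The ratios were −0.26 in ASC and −0.19 in FISC, alike in the 2 states. Tfb1m stood at 6.69 FPKM in ASC iKO, against 5.20 FPKM in ASC WT, a ratio of 0.31. In FISC it stood at 1.01 FPKM in iKO and 0.915 in WT, a ratio of 0.07. Tfb1m was thus above WT in both states by small amounts. Its listed locus is also that of Tiam2 and Cldn20, and Tiam2 stood at 17.7 FPKM in ASC iKO and 13.6 in ASC WT, so the Tfb1m values are uncertain.

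Polrmt, the mitochondrial RNA polymerase, stood at 13.1 FPKM in ASC iKO, against 17.1 FPKM in ASC WT. In FISC it stood at 3.55 FPKM in iKO, against 4.14 FPKM in WT. The ratios were −0.36 in ASC and −0.18 in FISC. Genes of like locus length had a median of 0.25 in ASC, and with that subtracted the Polrmt ratio was −0.61. Polg, the catalytic subunit of the mitochondrial DNA polymerase, stood at 22.2 FPKM in ASC iKO, against 27.2 FPKM in ASC WT. In FISC it stood at 30.6 FPKM in iKO and 29.4 FPKM in WT. The ratios were −0.28 in ASC and 0.06 in FISC, and the first was 0.13 with the median of like locus length subtracted. Polg shares its listed locus with Fanci, at 1.52 FPKM in ASC iKO and 3.41 in ASC WT. That locus spans 73936 bases, where RefSeq gives Polg alone 21681. The length median subtracted was thus not that of genes as long as Polg itself.

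As a group, 7 of the 9 measured genes were below 0 in ASC, with a median ratio of −0.36, when the median of all 11215 genes was 0.00 and 50.2% of them were below 0. In FISC 6 of 9 were below 0, with a median of −0.18 against 0.00 over 11229 genes, and none passed 2-fold, when 0.721% of all genes were at least 2-fold lower and 0.677% at least 2-fold higher. When each ASC library was scaled to the same upper quartile, the median of all genes moved by −0.14, that of the 9 genes was −0.51, and the split of all genes past 2-fold was 603 higher and 1299 lower in place of 980 and 926. Under that scaling Tfam (0.58) and Tfb1m (0.17) were still the 2 above 0. The ASC ratio also went with the length of the listed locus over all genes, with a median of 0.67 in the shortest decile and −0.48 in the longest. After the median of each gene's length decile was subtracted, 5 of the 9 were below 0, their median was −0.31, and none passed 2-fold, the farthest from 0 being Pprc1 at −0.94 and Ppargc1b at −0.89. The listed loci of Polg, Tfb1m and Gabpa also cover other genes and are longer than these genes in RefSeq. They span 231141 against 38547 bases for Tfb1m and 35908 against 28893 for Gabpa. Their length deciles, and the count of 5 below 0, rest on the longer loci. The part of locus length in the single ratios was not tested.

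Cultured cells were set against freshly isolated cells of the same genotype after each library was scaled to the same upper quartile of FPKM. The 2 tables may have been normalized separately, so these values are description only, and each ASC and FISC library also enters an iKO comparison above. Polrmt and Tfb1m were past 2-fold higher in ASC in both genotypes. Polrmt had scaled levels of 10.5 FPKM in ASC iKO and 4.28 in FISC iKO, and of 15.4 FPKM in ASC WT and 4.75 in FISC WT. Its ratios were 1.12 in iKO and 1.52 in WT, and that in iKO was 0.58 when sums of FPKM were made equal. Tfb1m had scaled levels of 5.35 FPKM in ASC iKO and 1.21 in FISC iKO, and of 4.71 FPKM in ASC WT and 1.05 in FISC WT, with ratios of 1.52 in iKO and 1.48 in WT. Over all genes, 21.6% in iKO and 23.1% in WT were at least 2-fold higher in ASC, near the share of 2 in 9 measured genes. Tiam2, at the locus of Tfb1m, was likewise higher in ASC, at the deposited levels of 17.7 FPKM in ASC iKO and 2.88 in FISC iKO.

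Pprc1 and Polg were past 2-fold lower in ASC in the iKO genotype, where 29.2% of all genes were, and within 2-fold in WT, where 21.8% of all genes were lower. Pprc1 had scaled levels of 21.0 FPKM in ASC iKO and 51.2 in FISC iKO, and of 42.8 FPKM in ASC WT and 57 in FISC WT. Its ratios were −1.25 in iKO and −0.41 in WT. Polg had scaled levels of 17.7 FPKM in ASC iKO and 36.9 in FISC iKO, and of 24.6 FPKM in ASC WT and 33.7 in FISC WT, with ratios of −1.02 in iKO and −0.44 in WT. The iKO calls depend on scaling: with FPKM as deposited the iKO ratios were −0.67 for Pprc1 and −0.45 for Polg, and with the median of all genes subtracted that of Polg was −0.83. The WT ratios depend on it as well. In WT that of Pprc1 was −0.07 as deposited and 0.04 with sums of FPKM made equal, and that of Polg −0.11 as deposited and −0.002 with equal sums. Leaving FPKM as deposited moved the median of all genes by 0.51 in iKO and 0.30 in WT, and making sums equal moved it by −0.55 in iKO and 0.39 in WT. The difference between the genotypes was not tested, and with 1 library each it could not be.

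**Figure D3:**
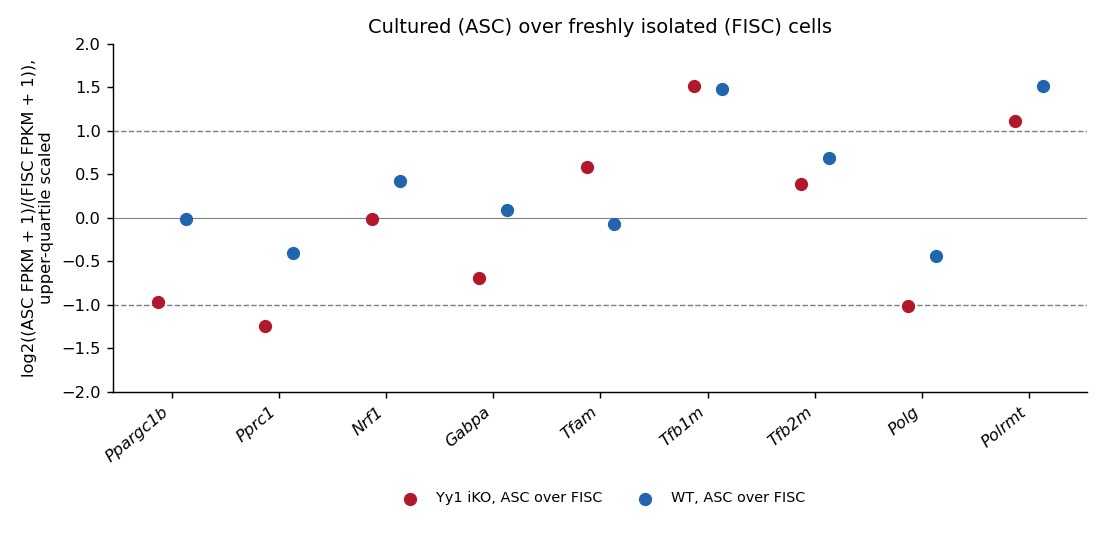
log2 ratio of ASC over FISC after upper-quartile scaling, for the Yy1 iKO and the WT genotype, with dashed lines at 2-fold. Polrmt and Tfb1m lie past 2-fold on the higher side in both genotypes, and Pprc1 (−1.25) and Polg (−1.02) lie past it on the lower side in iKO.

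Ppargc1b, Gabpa and Tfam also had different ratios in the 2 genotypes, within 2-fold under this scaling. Ppargc1b had an ASC over FISC ratio of −0.97 in iKO and −0.01 in WT, Gabpa of −0.70 in iKO and 0.09 in WT, and Tfam of 0.58 in iKO and −0.07 in WT. Other settings moved the iKO ratios past 2-fold: Ppargc1b to −1.33 with sums of FPKM made equal, −1.10 with the median of all genes subtracted and −1.90 with 0.1 FPKM added, Gabpa to −1.30 with equal sums, and Tfam to 1.15 with FPKM as deposited. The sign of Tfam also depends on scaling, being −0.03 in iKO with equal sums and, in WT, 0.25 as deposited and 0.36 with equal sums. In WT Ppargc1b likewise turned to 0.23 as deposited and 0.31 with equal sums. Nrf1 had ratios of −0.01 in iKO and 0.43 in WT, and the first was 0.54 as deposited and 0.15 with the median subtracted. Tfb2m had ratios of 0.39 in iKO and 0.69 in WT. With equal sums these were −0.20 in iKO and 1.11 in WT, and as deposited the WT ratio was 1.00, just past 2-fold. In the ASC iKO library a single microRNA gene, Mir762, took 39.8% of the summed FPKM, which lowers every other gene there when sums are made equal.

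Genes around these regulators were read from 5 further lists. Their counts stand beside the shares over all genes in ASC, where 8.74% were at least 2-fold higher in iKO, 8.26% at least 2-fold lower and 49.8% above 0. Of 15 genes of mitochondrial DNA replication and nucleotide supply, 1 was past 2-fold higher and 1 lower in ASC iKO, with 11 above 0 and a median of 0.47. Each count is near the share over all genes, and after the length medians were subtracted none passed 2-fold and the median was 0.32. The single-strand binding protein Ssbp1 stood at 99.4 FPKM in ASC iKO, against 48.5 FPKM in ASC WT. The DNA ligase Lig3, whose listed locus is also that of Rffl, stood at 6.21 FPKM in ASC iKO, against 13.8 FPKM in ASC WT. The helicase Twnk, listed under its older name Peo1, stood at 36.1 FPKM in ASC iKO and 25.5 in ASC WT, within 2-fold. The accessory subunit Polg2, whose listed locus is also that of Milr1, stood at 11.5 FPKM in ASC iKO and 6.09 in ASC WT. Both were named after their values were seen. In FISC the list's median was 0.07, with 1 of 13 measured genes past 2-fold higher in iKO, when 0.677% of all genes were. It was the nuclease Endog, also named after its values were seen (3.28 FPKM in FISC iKO, against 1.11 in FISC WT), whose listed locus is also that of D2Wsu81e.

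Of 24 genes of mitochondrial transcription and RNA handling, 1 was past 2-fold higher and 1 lower in ASC iKO, with a median of 0.20 and 20 above 0. The shares over all genes were 8.74% higher and 8.26% lower. The median was 0.12 with the length medians subtracted, and 0.04 with upper-quartile scaling, when that of all genes was −0.15. Pnpt1, the mitochondrial polynucleotide phosphorylase, stood at 11.4 FPKM in ASC iKO, against 32.9 FPKM in ASC WT. Slirp, an RNA-binding partner of LRPPRC, stood at 333 FPKM in ASC iKO, against 145 FPKM in ASC WT, but shares its listed locus with Nrp, Snw1, Alkbh1 and Mir3068. In FISC the same list had a median of −0.16, with 19 of 22 below 0, against 50.4% of all genes, and none past 2-fold.

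Of 11 genes described as NRF1 or GABP targets in mammalian cells, 3 were past 2-fold higher in ASC iKO and none lower, with 10 above 0 and a median of 0.68, when 8.74% of all genes were past 2-fold higher and 49.8% above 0. These were Cox17, a copper chaperone of cytochrome oxidase (398 FPKM in ASC iKO, against 132 in ASC WT), and its subunits Cox4i1 (828 FPKM in ASC iKO, against 376 in ASC WT) and Cox5b (564 FPKM in ASC iKO, against 277 in ASC WT). This list has short loci, with a median of 7.51 kb. After the median of each length decile was subtracted its median was 0.35 with 1 gene past 2-fold higher, when 631 of 11215 genes were. With upper-quartile scaling 1 gene was likewise past 2-fold higher, when 603 of 11215 genes were, and the median was 0.51. With the length medians subtracted, Nrf1 itself was at 0.04 and Gabpa at −0.36, though the listed locus of Gabpa is longer than the gene. In FISC the list's median was −0.01 and none passed 2-fold.

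Of 22 genes that bind PGC-1 proteins or form complexes with the respiratory factors, 18 were measured in ASC, 6 were past 2-fold lower in iKO and none higher, with a median of −0.68, when 8.26% of all genes were past 2-fold lower and 8.74% higher. Crebbp, a histone acetyltransferase, stood at 1.13 FPKM in ASC iKO, against 11.4 FPKM in ASC WT. Thra, a thyroid hormone receptor, stood at 2.2 FPKM in ASC iKO, against 7.34 FPKM in ASC WT, and the coactivator Ncoa2 at 2.80 FPKM in ASC iKO, against 7.41 FPKM in ASC WT. The list mixes coactivators with corepressors, and the corepressors Nrip1 and Ncor1 were also among the 6. Nrip1 stood at 0.571 FPKM in ASC iKO and 4.68 in ASC WT. Ncor1, whose listed locus is also that of Ttc19, stood at 14.2 FPKM in ASC iKO and 30.1 in ASC WT. Both were named after their values were seen. The loci of the list are long, with a median of 73.2 kb. With the length medians subtracted 3 genes were past 2-fold lower, when 750 of 11215 genes were, and the median was −0.53. Esrra, the estrogen-related receptor that pairs with PGC-1 coactivators, was higher at 27.6 FPKM in ASC iKO and 18.7 in ASC WT, within 2-fold, and was named after its value was seen. Its listed locus is also that of Trmt112 and Mir6990. In FISC the list's median was 0.07 and none passed 2-fold.

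Of 21 upstream signals, 19 were measured in ASC and 3 were past 2-fold lower in iKO, with a median of −0.36 that was −0.09 after the length medians were subtracted. One of the 3 is Yy1 itself, and the other 2 of 18 are near the 8.26% of all genes that were past 2-fold lower. They were Prkab2, a regulatory subunit of the kinase AMPK (2.26 FPKM in ASC iKO, against 6.70 in ASC WT), and Mef2d, a myogenic transcription factor (10.2 FPKM in ASC iKO, against 24.7 in ASC WT). In FISC only Yy1 of the 18 measured passed 2-fold.

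**Figure D4:**
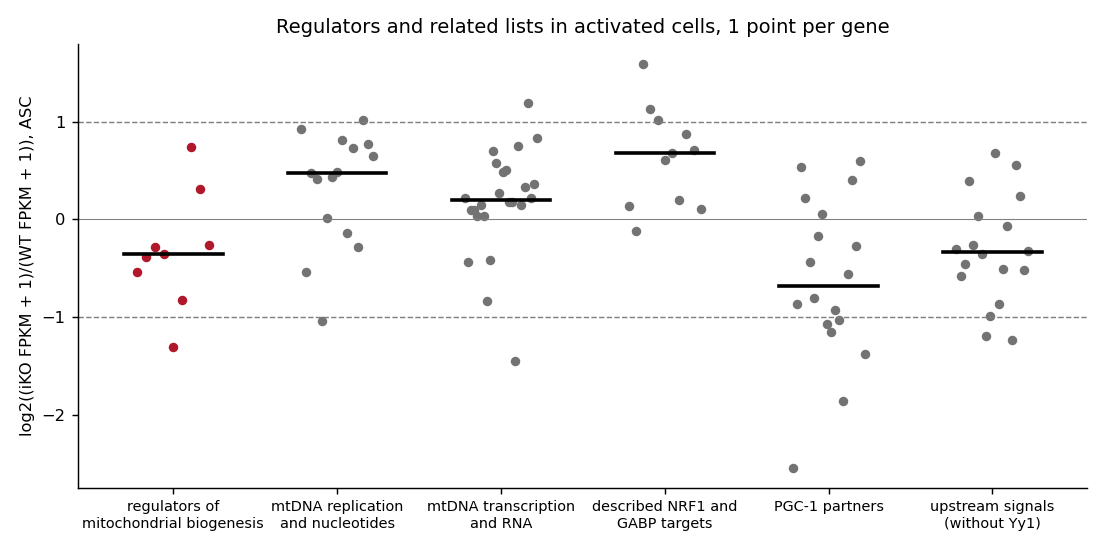
log2 ratio of iKO over WT in ASC for each gene with at least 1 FPKM, by list, with a black bar at the list's median and dashed lines at 2-fold; Yy1 is left out of the upstream signals. The described NRF1 and GABP targets lie mostly above 0 (median 0.68), and the PGC-1 partners mostly below 0 (median −0.68).

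The deposited YY1 peaks of ASC, 2031 in all from 1 library and 1 input, were set against the listed mm9 loci. A summit lay inside the locus or within 2 kb of it for 2 of the 10 genes, Pprc1 and Tfb2m, against 9.85% of 11215 genes with at least 1 FPKM in ASC, a difference of about 1 gene. At Pprc1 (chr19:46131029-46147399) the peak ran over chr19:46131035-46131193, with its summit 75 bases inside the lower end. RefSeq places Pprc1 on the plus strand, which makes that end its start. The authors' values for it were a fold of 4.50, a −log10 p of 5.76 and a −log10 q of 1.04, rank 641 of the list by p. At Tfb2m (chr1:181458187-181476398) the peak ran over chr1:181469599-181469699, with its summit 6759 bases from the nearer end, a fold of 3.96, a −log10 p of 4.92 and a −log10 q of 0.31. No exon annotation of mm9 was used, so exon and intron are not assigned. Neither peak was among the 171 with a −log10 p of at least 10.

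For the other 8 genes the nearest summit was between 66.7 kb (Polrmt) and 2427 kb (Tfam) from the listed locus. That at 66.7 kb, from Polrmt, was rank 5 of the list by p with a fold of 23.9 and lay at the listed loci of Tpgs1 and Madcam1. Pprc1 and Tfb2m, the 2 genes with a peak, had ASC ratios of −0.82 and −0.26, and most measured genes without a peak (Ppargc1b, Nrf1, Gabpa, Polg and Polrmt) were likewise below 0.

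**Figure D5:**
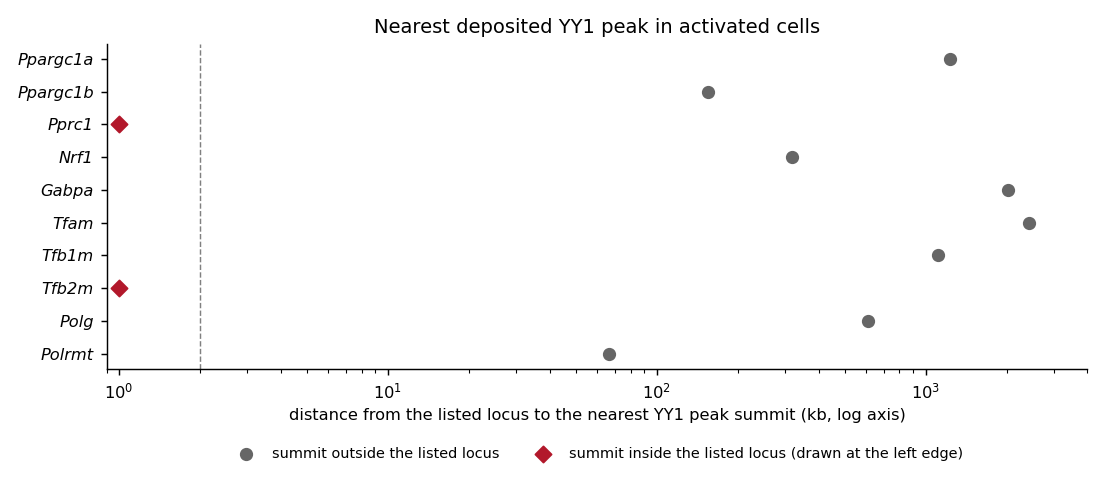
Distance in kb (log axis) from each gene's listed mm9 locus to the nearest YY1 peak summit in ASC, with a dashed line at 2 kb; summits inside a locus are drawn as diamonds at the left edge. Pprc1 and Tfb2m have a summit inside, and the closest of the other 8 genes, Polrmt, is 66.7 kb from its nearest summit.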

How the data were processed

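Polyadenylated RNA of 4 groups and 1 YY1 immunoprecipitation with its input were analysed, 1 library per group. The authors deposited FPKM per gene in 1 table per state, per the file headers, and 1 peak list in the narrowPeak layout with a score, a fold over background, −log10 p and −log10 q per peak, all the authors' own values. Per the submitters' processing notes, TopHat2, Cufflinks 2.2.1, MACS2 2.1.0 and mm9 were used; the annotation, strandedness, filters and inter-library scaling were not given in the sources used here. Since FPKM no longer holds library size, the total depth is unknown. Of 1573 ASC and 1542 FISC genes at or below 0.3 FPKM in both libraries, 8.26% and 16.2% shared the step (log2 rounded to 2 decimals) that gave the relative depth.

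From these were computed, with Python 3.11.15, pandas 2.3.3 and numpy 2.4.6, the log2 ratios with a pseudocount of 1 and a minimum of 1 FPKM, unscaled within a table and upper-quartile scaled (over genes with at least 1 FPKM in all 4 libraries) between tables. The ratio, 2-fold and scaling steps were checked on values simulated without noise, which checks the arithmetic only. Listed starts were made 1-based. No test was possible. The 10 genes and all lists were chosen with earlier results of these data known. All 10 genes are named; of the 5 related lists, the 3 highest and 3 lowest past 2-fold in ASC with at least 5 FPKM in 1 library of the pair. Gabpb1, Gabpb2, Endog, Twnk, Polg2, Esrra, Nrip1, Ncor1 and Mir762 were named outside this rule, with their values known. So were Cd14, Cd68 and the genes that share a listed locus. Lists were matched by symbol, and 2 genes by an older one. Alternatives were another pseudocount, filters, scalings, centring on locus length, peak windows and peak thresholds.

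Markers of other cells were also summed. In the order ASC iKO, ASC WT, FISC iKO and FISC WT, endothelial markers summed to 2.88, 2.93, 14.7 and 17.8 FPKM, fibroblast markers to 19.0, 39.9, 327 and 342, immune markers to 14.9, 4.23, 6.77 and 7.12, adipocyte markers to 2.76, 1.15, 33.2 and 25.8, pericyte markers to 0.571, 1.48, 18.6 and 20.0, and erythroid markers to 0.0561, 0, 322 and 270.0. Ptprc and Adgre1, defining for immune cells, were listed at 0 in both ASC libraries. Of the 6 immune markers, 2 were at 1 FPKM or more in ASC, both higher in iKO. Cd14 stood at 9.75 FPKM in ASC iKO and 2.80 in ASC WT, and Cd68 at 5.16 FPKM in ASC iKO and 1.36 in ASC WT. The part of these cells in the values was not tested.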

Additional observations from a re-analysis of the deposited data

Results flagged for a closer look

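Gabpa, Tfam and Polg had iKO over WT ratios on opposite sides of 0 in the 2 states, each state with 1 library per genotype, and the difference was not tested. For Tfam the ratio was 0.74 in ASC and −0.16 in FISC, a difference of 0.90 on the log2 scale. For Gabpa it was −0.53 in ASC and 0.02 in FISC, a difference of −0.55. For Polg it was −0.28 in ASC and 0.06 in FISC, a difference of −0.34. With the median of like locus length subtracted the ASC ratio of Polg was 0.13, on the same side as in FISC, though its listed locus is longer than the gene. The FISC ratios of Tfam, Gabpa and Polg all lie between the quartiles of all genes, which ran from −0.19 to 0.18 there.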

How the results depend on the processing

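With 1 library per group no replicate could be left out. No paired analysis was possible because each group has 1 library. The count of 1 gene past 2-fold in ASC (Ppargc1b) became 0 with at least 5 FPKM required, 0 with length-decile medians subtracted and 0 without the 4 genes that share a listed locus, the last an alternative added after seeing the data. The median ratio of the genes in ASC was −0.51 with upper-quartile scaling in place of −0.36. Without the 4 sharing genes, 2 in place of 4 genes passed 2-fold in ASC over FISC in iKO and 1 in place of 2 in WT. With peaks of −log10 p of at least 10 only, 0 of the 10 genes had a peak in place of 2. The other 35 of 42 alternative values of these counts and medians stayed within 1.5 times (counts) or 0.1 (medians), and no ratio past 2-fold changed sign. Totals hide the direction: in ASC over FISC in iKO, the 2 higher and 2 lower became 3 higher and 0 lower as deposited, 1 higher and 4 lower with equal sums, and 2 higher and 3 lower with a pseudocount of 0.1, and in WT the 2 higher became 3 as deposited and with equal sums. Of 192 single-gene values under alternatives, 169 kept direction and side of 2-fold, 7 came to pass it, 5 no longer passed it and 11 within 2-fold changed sign. Counts over all genes moved by more than 1.5 times in these cases: FISC with a pseudocount of 0.1 (194 higher and 217 lower, in place of 76 and 81), FISC with at least 5 FPKM (43 higher), ASC with upper-quartile scaling (603 higher, in place of 980) or length centring (631 higher), and ASC over FISC in iKO unscaled (3980 higher, in place of 2548) or with equal sums (1488 higher). Depth limits most the genes of lowest level, Ppargc1a and Ppargc1b and, in FISC, Tfb1m.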
